A study of Mus musculus with 4 samples.

Results

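A set of 10 interferon-stimulated genes, Isg15, Ifit3, Ifitm3, Bst2, Ly6e, Rtp4, Ifi203, Slfn8, Lgals3bp and Irgm1, were described in an m6A profile of mouse macrophages. They were chosen by name because their level in KO input RNA was above that in WT input RNA in these same libraries, so the input values below describe the choice and test nothing. They were 10 of the 4403 genes with a listed input level. Levels were listed only for genes in the table of differential peaks, so all 10 had at least 1 such peak by construction. Macrophages were derived from C57BL/6 bone marrow in culture with M-CSF, a growth factor of macrophages, over 7 days. The KO cells were LysM-cre, Mettl3 fl/fl and the WT cells were Mettl3 fl/fl, so both genotypes carried floxed Mettl3 alleles and the Cre was present in KO cells only. The Cre is driven by the gene for lysozyme 2, which is active in myeloid cells, and which exons are floxed is unknown here. Fragmented poly(A) RNA was precipitated with an antibody against N6-methyladenosine (m6A) to give an IP library, beside an input library of unprecipitated RNA. With 1 library of each kind per genotype, or 4 libraries together, differences have no replicate check. How many animals each library came from is unknown here.

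Type I interferon binds a receptor made of IFNAR1 and IFNAR2, and signalling through the kinases JAK1 and TYK2 then leads to the binding of interferon-stimulated response elements (ISREs) in promoters. The genes switched on in this way act against viruses and other intracellular microbes, and macrophages both make interferon and respond to it. METTL3 is the catalytic subunit of the complex that writes m6A on messenger RNA, a mark found mainly near stop codons and in 3′ untranslated regions (3′ UTRs).

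The promoters are shown because all 10 genes are known targets of interferon. A table of RefSeq promoters (build GRCm38.p6), spanning 250 bases before to 50 after each transcription start, held 8 of the 10 genes with 10 promoters, and did not hold Ly6e and Rtp4. The motif GAAANNGAAA, an ISRE core of 10 letters, was searched on both strands with overlapping matches allowed, and N stands for any base. It was found in 7 of the 8 genes and in 8 of the 10 promoters, against 3.99% of all 27025 genes and 3.44% of all their promoters. In the lines that follow, written 5′ to 3′ in the direction of the gene, capitals mark the matches to this motif, and TTTC ends show a match on the opposite strand. Isg15 and Ifit3 are given from 250 bases upstream to the base before the start, and the others as 30 bases around the match.
Isg15 (chr4:156200819-156201068, minus strand): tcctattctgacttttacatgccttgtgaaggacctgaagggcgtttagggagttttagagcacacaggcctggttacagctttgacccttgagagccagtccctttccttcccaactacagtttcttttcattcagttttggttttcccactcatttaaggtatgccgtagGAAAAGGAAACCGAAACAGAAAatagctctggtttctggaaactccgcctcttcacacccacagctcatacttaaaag
Ifit3 (chr19:34583279-34583528, plus strand): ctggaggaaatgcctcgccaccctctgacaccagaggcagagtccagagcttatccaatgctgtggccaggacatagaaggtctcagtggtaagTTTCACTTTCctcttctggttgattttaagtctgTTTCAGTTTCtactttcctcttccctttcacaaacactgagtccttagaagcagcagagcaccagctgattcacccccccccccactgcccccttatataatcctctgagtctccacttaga
Ifitm3 (chr7:141010715-141010744, minus strand): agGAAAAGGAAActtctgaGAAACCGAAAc
Bst2 (chr8:71537580-71537609, minus strand): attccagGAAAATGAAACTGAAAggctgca
Ifi203, second start (chr1:173942508-173942537, minus strand): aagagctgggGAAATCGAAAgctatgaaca
Slfn8 (chr11:83020839-83020868, minus strand): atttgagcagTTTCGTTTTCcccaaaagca
Irgm1 (chr11:48871428-48871457, minus strand): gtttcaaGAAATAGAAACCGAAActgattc

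Only the promoter window given above was searched, so every match lay close to a start by construction. Counting the start as +1, with no base 0, Isg15 had 3 overlapping matches from -78 to -57, Bst2 a pair of overlapping matches from -130 to -115, and Irgm1 another such pair from -30 to -15. Ifit3 had separate matches from -156 to -147 and from -122 to -113, both on the opposite strand. Both Ifitm3 matches lay after the start, from +3 to +12 and from +20 to +29. The match of Slfn8 lay from -48 to -39 of its first listed start, and at the same site from -136 to -127 of its second. Ifi203 had a match from -35 to -26 of its second listed start and none at its first. The promoter of Lgals3bp held no match, which says only that these letters are not in that window. A shorter motif of the gamma-activated site (GAS) type, TTCNNNGAA, was found in 2 of the 8 genes, Ifitm3 and Bst2, against 9.55% of all genes. GAS and ISRE matches can overlap each other, and a match describes letters and is no bound site. Of the other interferon lists described below, 41.4% of 70 matched interferon-stimulated genes, 43.8% of 32 family relatives, 14.3% of 21 signalling genes and 30.8% of 13 ligand and receptor genes held GAAANNGAAA.

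**Figure D1:**
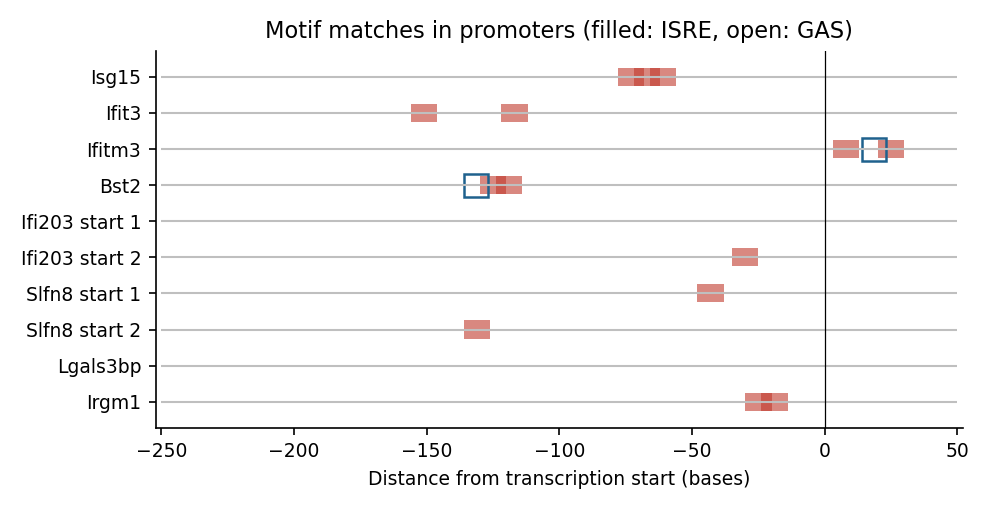
Motif matches in the 10 promoters of 8 genes, with the distance from the transcription start in bases on the horizontal axis and 1 promoter per row. Filled boxes are GAAANNGAAA and open boxes TTCNNNGAA, and the ISRE matches of Isg15, Bst2 and Irgm1 form overlapping clusters before the start.

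No check of the deleted transcript was possible, as no Mettl3 input level was analysed here. Mettl3 had 1 peak in the KO list, with a 1.35-fold enrichment and a false discovery rate (FDR) of 0.0759, and 0 peaks in the WT list. Sequencing depth is unknown, because no read totals were at hand. Of 8 macrophage markers 5 had an input level, from 58.4 to 6620 FPKM in KO and from 40.6 to 10500 FPKM in WT, so the labelled cell type was present in both. FPKM is a count of fragments scaled to transcript length and library size. The summed level of the macrophage markers was 8130 FPKM in KO and 12000 FPKM in WT, most of it from Lyz2, the gene that drives the Cre, with 6620 FPKM in KO and 10500 FPKM in WT. The other 4 macrophage markers summed to 1520 FPKM in KO and 1470 FPKM in WT. Of these 4, 3 were higher in KO, against 69.0% of all genes averaging 1 FPKM or more. Fcgr1, among those 3, also stands in the list of other interferon-stimulated genes described below. The summed level was 137 FPKM in KO and 233 FPKM in WT for the 2 of 8 neutrophil markers listed. The markers of plasmacytoid dendritic cells, strong producers of interferon, summed to 2.22 FPKM in KO and 1.88 FPKM in WT, from Tcf4 alone of 6. Itgax, the 1 listed of 6 conventional dendritic cell markers, had 46.7 FPKM in KO and 71.9 FPKM in WT, and Cd79b, the 1 listed of 5 B cell markers, had 0.734 FPKM in KO and 1.12 FPKM in WT. No marker of T and NK cells (5) or of stromal cells (6) had a level. Levels were listed only for genes with a differential peak, so a missing level does not show a missing transcript. Of the 6 stromal markers 3 had a KO peak and 3 a WT peak, and of the 6 plasmacytoid markers 3 and 2. The part of these differences in the values of the 10 genes was not tested. In bulk RNA, more cells of a type and more RNA per cell cannot be told apart.

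Input levels of all 10 genes were higher in KO than in WT, as they were chosen to be, by 1.09-fold to 2.26-fold. Of the 3679 genes that averaged 1 FPKM or more, 2540, or 69.0%, were also higher in KO, with a median difference of 0.07 on the log2(FPKM + 1) scale, which understates the differences of low genes. The median difference of the 10 genes was 0.63 on that scale. Differences of at least 0.5 were found in 8 of the 10 and in 1.79% of all genes. In the authors' deposited table the p-values of the input differences ranged from 0.094 to 0.939 for the 10 genes and every adjusted p was 1.0, while 0.432% of all genes had an unadjusted p under 0.05 there. Those p-values compare 1 library with 1 library.

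Among the genes that act at membranes, Ifitm3, which blocks the fusion of viruses in endosomes, had 217 FPKM in KO input and 144 FPKM in WT input, the highest levels of the set in both. Bst2 (tetherin), which holds budding virus particles at the cell surface, had 90.7 FPKM in KO and 83.5 FPKM in WT, a difference of 0.12 that was larger than those of 63.1% of all genes. Ly6e, a surface protein anchored by a lipid that affects virus entry, had 31.7 FPKM in KO and 14.0 FPKM in WT, a difference of 1.12. Ly6e thus stood at the top of the set, above 99.8% of all genes, and Bst2 at the bottom of it, near the middle of all genes.

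Inside the cell, Isg15, a ubiquitin-like protein that is joined to other proteins, had 14.8 FPKM in KO and 8.83 FPKM in WT, a difference of 0.69. Ifit3, a partner in complexes of IFIT proteins that bind viral RNA, had 12.4 FPKM in KO and 7.35 FPKM in WT, also a difference of 0.69. Rtp4, a chaperone of membrane receptors that restrains some RNA viruses, had 18.1 FPKM in KO and 8.14 FPKM in WT, a difference of 1.06. Irgm1, a GTPase of the defence against intracellular bacteria, had 11.8 FPKM in KO and 7.75 FPKM in WT, a difference of 0.55. These 4 differences were larger than those of at least 98.5% of all genes.

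The remaining genes belong to families of nuclear or secreted proteins and a family of Schlafen proteins. Ifi203, of the family of DNA-binding interferon-inducible proteins that includes AIM2, had 5.46 FPKM in KO and 3.23 FPKM in WT, a difference of 0.61. Slfn8, a Schlafen protein known from the control of T cell growth, had 10.4 FPKM in KO and 7.67 FPKM in WT, a difference of 0.40. Lgals3bp, a secreted glycoprotein that binds galectin 3, had 173 FPKM in KO and 110 FPKM in WT, a difference of 0.65. Ifi203 was the gene with the lowest level of the set in both genotypes. Levels of Ifit3, Ifitm3, Ifi203, Slfn8 and Irgm1 are uncertain where relatives of the same family, such as Ifit3b and Slfn9, could share reads, which was not measured, since the handling of shared reads is unknown here. Whether counting used strand is also unknown, and the extent of Isg15 overlaps that of Gm46878 at its 3′ end.

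**Figure D2:**
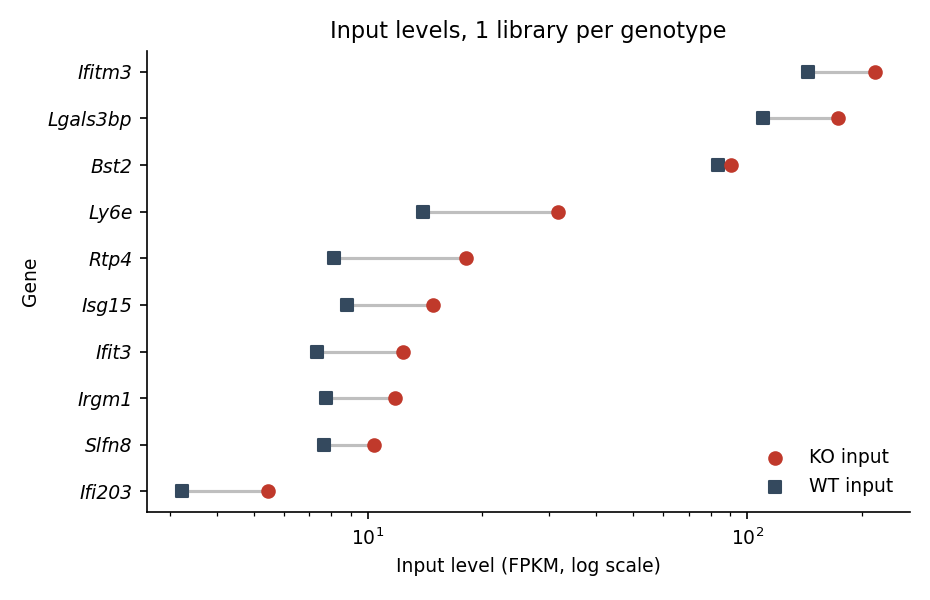
Input level of each gene in FPKM (log axis), KO as red circles and WT as dark squares, 1 library per genotype with no error to show. The KO point lies right of the WT point for every gene, with the widest separation for Ly6e and Rtp4 and the narrowest for Bst2.

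Called peaks were next set side by side by genotype. Every peak has a fold enrichment of IP over input, a p-value and an FDR, all the authors' own values, which describe peaks within their own list. The KO list held 21031 peaks, of which 17 were named for the 10 genes, and the WT list held 16709 peaks, of which 13 were named for 8 of them. All 10 genes had a KO peak, against 97.5% of all genes with an input level, and 8 had a WT peak, against 92.0%. These 8 had a peak in both lists, against 89.9%. Genes with an input level were those with a differential peak, so these counts and shares describe genes already selected for peaks. Ifitm3 and Ly6e were the genes without a WT peak. Of the KO peaks 13 lay in the 3′ UTR, 3 in other exons and 1 in the 5′ UTR, and of the WT peaks 9, 3 and 1. Counting bases outside the named genes, the peaks covered 14655 exonic bases in KO and 14750 in WT. Most were found in both genotypes by an overlap of at least 1 exonic base. Of the 17 KO peaks 13 overlapped a WT peak, against 61.6% of all KO peaks. Of the 13 WT peaks 12 overlapped a KO peak, against 73.4% of all WT peaks. With an overlap of at least 50% of both peaks, 9 of the 17 KO peaks and 9 of the 13 WT peaks were shared. The shares over all peaks were not limited to genes with a differential peak. The median fold enrichment was 2.25 for the genes' KO peaks in a list whose median was 3.15, and 2.94 for their WT peaks in a list whose median was 3.74.

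The authors' gene name did not always match the gene under the peak. By RefSeq gene extents, 14 of the 17 KO peaks and 12 of the 13 WT peaks had at least 1 exonic base in the named gene. These include a peak of Irgm1 in each list that lay mostly beyond the gene. The exceptions were peaks named Lgals3bp that lay in Cant1, 2 in KO and 1 in WT, and a KO peak named Ifi203 that lay in Ifi202b. Conversely, a peak named Masp1 in both lists began where the extents of Masp1 and Rtp4 overlap and ended near the 3′ end of Rtp4, and peaks named Ifi211 lay in the extent of Ifi203.

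Isg15 (chr4:156199424-156200818, minus strand, mm10) and Irgm1 (chr11:48865245-48871420, minus strand) had the strongest peaks of the set. The Isg15 peak reached a 16.5-fold enrichment over 674 bases in KO and 18.4-fold over 703 bases in WT, above 95.3% of KO peaks and 93.2% of WT peaks. It lay in the 3′ UTR by annotation and its KO blocks, within chr4:156199455-156200767, ran from near the 3′ end of the gene to near its start. The main Irgm1 peak reached 17.8-fold over 1797 bases in KO and 24.2-fold over 2067 bases in WT, above 96.3% of KO and 95.9% of WT peaks. A second peak named Irgm1, 3594 bases long in KO and 3534 in WT, lay mostly beyond the RefSeq 3′ end of the gene, with 3.54-fold enrichment in KO and 7.14-fold in WT. Both genes therefore carried strong peaks in both genotypes.

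Slfn8 (chr11:83002125-83020810, minus strand) had 1 peak with the same 6 blocks and 4091 exonic bases in both lists. Its enrichment was 8.05-fold in KO, above 80.6% of that list, and 16.4-fold in WT, above 92.1% of that list. Ifit3 (chr19:34583119-34588982, plus strand) had 3 peaks in each genotype, the first annotated to the 5′ UTR, with a short block near the start and a longer one in the last exon, the next within the last exon and the last at the 3′ UTR. The 3′ UTR peak was the strongest of them, at 4.77-fold over 770 bases in KO and 5.36-fold over 710 bases in WT. The 5′ UTR peak reached 1.75-fold in KO and 1.84-fold in WT, and the exon peak 2.25-fold in KO and 2.0-fold in WT, so the order of strength along the gene was 3′ UTR, exon and 5′ UTR in both lists. Ifit3b, the copy of Ifit3, had 2 peaks in KO and 3 in WT, and Slfn9, the relative of Slfn8, had 0 in KO and 1 in WT.

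Lgals3bp (chr11:118392747-118401959, minus strand) was divided differently in the genotypes. In KO a 3′ UTR peak of 690 bases and an exon peak of 1049 bases, at 2.46-fold and 2.22-fold, were separated by 119 bases. In WT 1 peak of 1918 bases at 2.94-fold spanned both. Bst2 (chr8:71534255-71537472, minus strand) had 1 peak at its 3′ end, 292 bases at 4.6-fold in KO and 146 bases at 6.12-fold in WT. The KO peak of Bst2 continued into a second block, and the WT peak did not.

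Ifi203 (chr1:173920400-173942866, minus strand) had a weak peak in exon 7 of 10 in both lists, 90 bases at 1.61-fold with an FDR of 0.142 in KO and 450 bases at 2.47-fold in WT. A second WT peak of 210 bases, at 1.74-fold, shared no base with a KO peak. Of the peaks named Ifi211 in the extent of Ifi203, the WT one had 510 bases at 9.18-fold with an FDR of 0.195. The KO one had 210 bases at 1.91-fold with an FDR of 0.251, and neither shared a base with the other list. Rtp4 (chr16:23520219-23614222, plus strand) had 1 short named peak per genotype, 148 bases at 1.91-fold in KO and 208 bases at 2.04-fold in WT, with FDRs of 0.251 in KO and 0.192 in WT. The stronger signal over Rtp4 was the peak named Masp1, with 7 identical blocks and 1687 bases in both lists, at 4.96-fold in KO and 6.32-fold in WT.

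Ifitm3 (chr7:141009590-141010744, minus strand) and Ly6e (chr15:74955025-74959904, plus strand) had a short, weak 3′ UTR peak in KO only. The Ifitm3 peak, 207 bases at 1.38-fold, stood above 5.17% of the KO list, and the Ly6e peak, 180 bases at 1.43-fold, above 6.59%. The FDRs were 2.45e-10 for Ifitm3 and 1.95e-08 for Ly6e. A weak call in 1 list and none in the other is no test of a difference between genotypes, and the input level of both genes was higher in the genotype with the call.

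**Figure D3:**
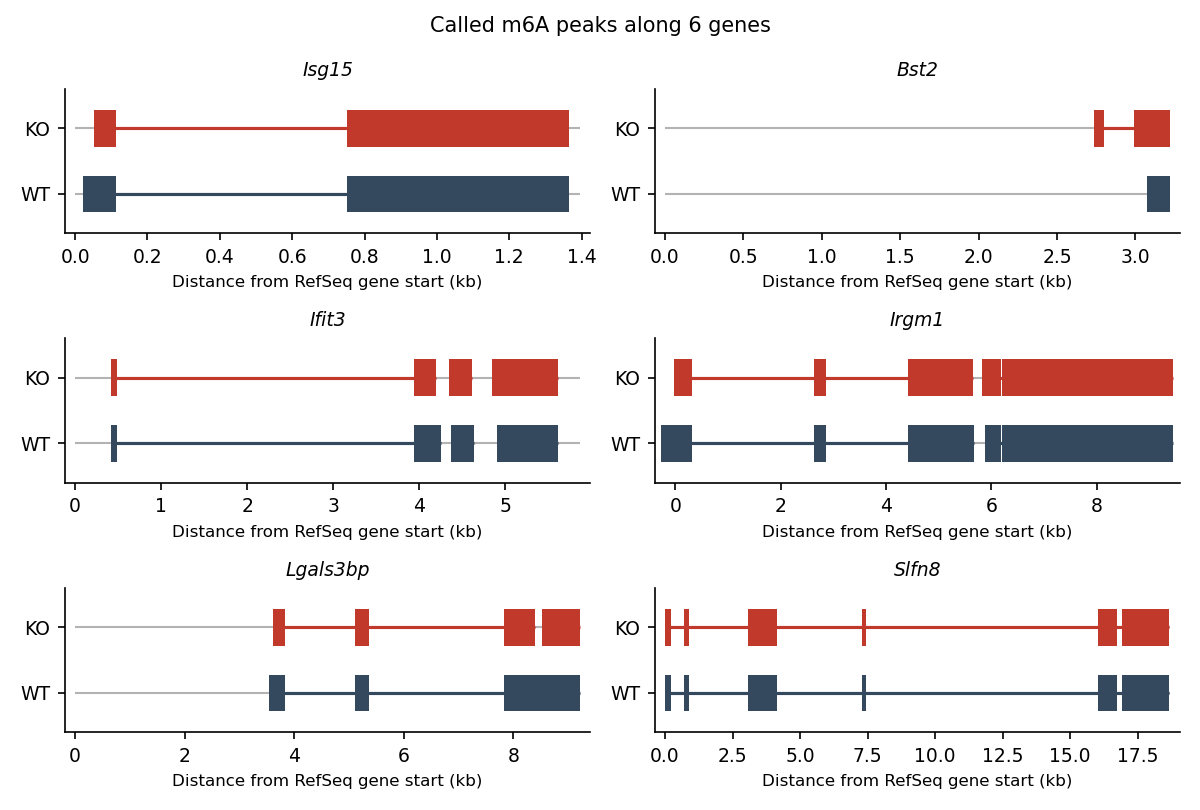
Called peaks named for the gene and lying in it, along 6 genes, KO above WT, with the distance from the RefSeq gene start in kilobases on the horizontal axis. Boxes are exonic blocks, thick lines join blocks of a peak and the thin grey line is the gene. The peaks lie at matching places in both genotypes, and Lgals3bp has 2 peaks in KO where WT has 1.

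The authors' deposited table of differential peaks gives the ratio of KO over WT enrichment on a log2 scale and lists only peaks with a p under 0.05. The input libraries that give the FPKM levels are also the denominators of these ratios, so a gene's ratio and its input difference share those libraries. Of 13 peaks named for the 10 genes in the authors' deposited table, 9 were lower in KO and 4 higher, against 69.6% lower and 30.4% higher among all 6050 listed peaks. Their median was -0.39, against -0.40 for the whole of the authors' deposited table, and 5 of the 13 lay below that median. So the share of lower peaks and their size were near those of the table. Of the 13 peaks 11 had an FDR under 0.05, against 79.6% of the table, and 9 of these 11 were lower, against 71.6% of all peaks at that FDR. Of the 11 peaks in 3′ UTRs 7 were lower, against 63.2% of all 3′ UTR peaks listed. Of the 10 genes, 7 had at least 1 lower peak, against 71.1% of all genes in the authors' deposited table.

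Lower peaks were listed for Isg15, Ifit3, Rtp4, Ifi203, Slfn8, Lgals3bp and Irgm1. In the authors' deposited table the log2 ratio of KO over WT was -0.74 for Ifi203 (FDR 0.0219), -0.68 for Irgm1 (FDR 5.01e-43) and -0.65 for Isg15 (FDR 1.29e-06). These are enrichments of 0.598, 0.623 and 0.639 of the WT value in the authors' deposited table. The ratio in the authors' deposited table was -0.47 for Slfn8 (FDR 2.51e-14), -0.42 for Rtp4 (FDR 5.01e-09) and -0.34 for the 3′ UTR of Ifit3 (FDR 0.024). These ratios are not the quotients of the called peaks' fold enrichments. Isg15 had 16.5-fold in KO and 18.4-fold in WT beside its 0.639 in the authors' deposited table. Slfn8, with the same blocks in both lists and the differential entry, had 8.05-fold in KO and 16.4-fold in WT. Its enrichment in the authors' deposited table was 0.724 of the WT value. The Rtp4 entry, 1125 bases long, lay wholly within the blocks of the peak that both genotypes' lists name Masp1. Lgals3bp had ratios of -0.39 for its exon peak (FDR 1.58e-39) and -0.12 for its 3′ UTR peak (FDR 0.00316) in the authors' deposited table. A further entry of the authors' deposited table named Ifit3, at -0.39, lay in Ifit2, the neighbouring gene of the same family.

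Higher peaks were listed for Bst2, Ly6e and Ifitm3, and for a peak named Lgals3bp that lay in Cant1. In the authors' deposited table the log2 ratio was 0.49 for Bst2 (FDR 0.00977), 0.38 for Ly6e (FDR 0.0794), 0.32 for Ifitm3 (FDR 0.0372) and 0.58 for the peak in Cant1 (FDR 0.102). The entries in the genes themselves were short, 176 bases for Bst2, 120 for Ly6e and 89 for Ifitm3. For Bst2 the ratio in the authors' deposited table had the opposite order to the fold enrichments of its called peaks, 4.6 in KO and 6.12 in WT, which cover 292 and 146 bases against 176 in the differential entry.

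The direction of the ratio went with the length of the peak, among the 10 genes and in the whole of the authors' deposited table. Among peaks lying in their named gene, the 3 higher ones measured 89 to 176 bases and the 8 lower ones 330 to 4091 bases, so the groups did not overlap in length. Over the authors' deposited table the median length was 209 bases for 1838 higher peaks and 804 bases for 4212 lower peaks. Of listed peaks under 200 bases 21.7% were lower in KO, of those from 200 to under 600 bases 59.5%, and of those of at least 600 bases 97.7%. All 7 peaks of at least 600 bases in the 10 genes were lower and all 3 under 200 bases were higher. What part length has in the direction was not tested.

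**Figure D4:**
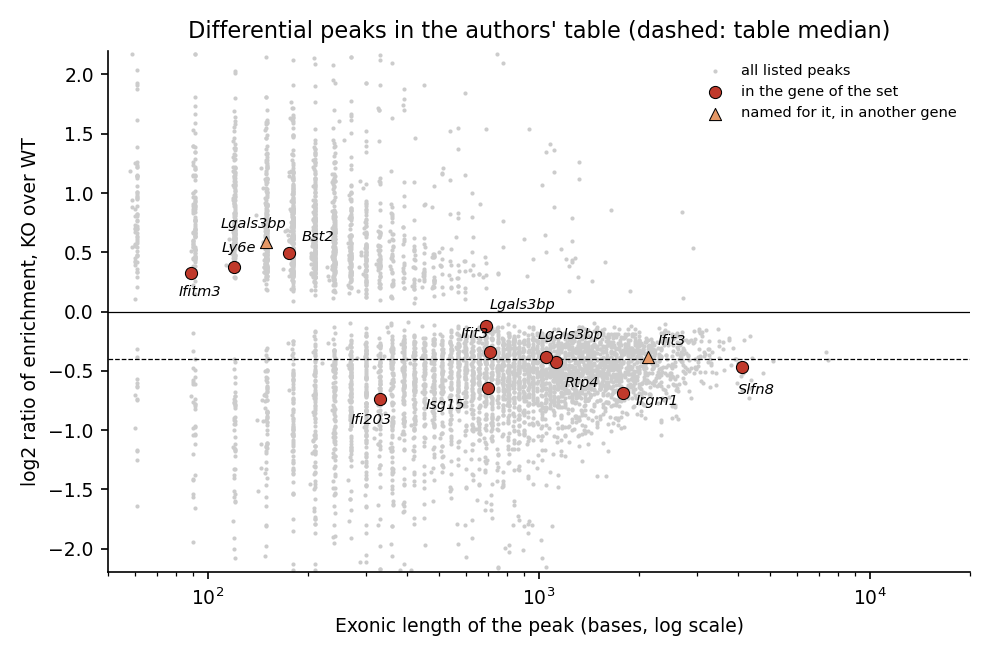
Log2 ratio of KO over WT enrichment against the exonic length of each peak in bases (log axis), with all 6050 listed peaks in grey, the peaks in the 10 genes as red circles and peaks named for them in another gene as orange triangles. The dashed line is the median of -0.40, and 124 peaks lie beyond the vertical limits of -2.2 and 2.2. The long peaks of the 10 genes lie below 0 and the short ones above it.

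The interferon pathway around the 10 genes was described from lists of 14 ligands and receptors, 23 signalling genes, 92 other interferon-stimulated genes and 40 relatives of the families of the 10. Of these 169 genes 45 had an input level, as levels were listed only for genes with a differential peak. All 45 averaged 1 FPKM or more, so that filter removed none of them. By contrast, 109 of the 169 had a KO peak and 93 a WT peak. Of the 45 genes, 37 were higher in KO and 8 lower, against 69.0% higher among all genes, with a median difference of 0.23. Above the median of all genes lay 31 of them, and 5 had a difference of at least 0.5, against 1.79% of all genes. Among the other interferon-stimulated genes 22 of 25 were higher in KO, with a median of 0.26. Among the relatives 5 of 7 were higher, a count near the 69.0% of all genes, with a median of 0.35. Among signalling genes 8 of 10 were higher, with a median of 0.08, and among ligands and receptors 2 of 3, with a median of 0.02, counts near the 69.0% of all genes. The medians of the receptor and signalling lists were near the 0.07 of all genes, and those of the other lists above it.

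The listed receptor chains differed little between the inputs. Ifnar1, a chain of the type I interferon receptor, had 19.5 FPKM in KO and 18.7 FPKM in WT. Ifngr1, of the interferon gamma receptor, had 33.8 FPKM in KO and 33.2 FPKM in WT, and Il10rb, shared by the receptors for interleukin 10 and interferon lambda, had 59.5 FPKM in KO and 62.0 FPKM in WT. Jak1, a kinase of interferon receptor signalling, had 32.4 FPKM in KO and 31.6 FPKM in WT. Among the interferon regulatory factors, Irf3 had 10.1 FPKM in KO and 8.46 FPKM in WT, a difference of 0.23. Irf5 had 58.0 FPKM in KO and 59.4 FPKM in WT, and Irf8 had 27.4 FPKM in KO and 27.6 FPKM in WT.

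Among the regulators of the pathway the differences were 0.06 for Pias1, 0.09 for the phosphatase gene Ptpn6 and 0.01 for the phosphatase gene Ptpn11. Trex1, a nuclease that removes cytosolic DNA, had 20.3 FPKM in KO and 11.8 FPKM in WT, and its difference of 0.74 was the largest of the lists outside the 10 genes. Adar, which edits double-stranded RNA, had 9.25 FPKM in KO and 7.31 FPKM in WT, a difference of 0.30. Both genes are themselves induced by interferon.

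Among the other interferon-stimulated genes and the relatives, the largest differences beside a mean of at least 5 FPKM were those of the GTPase gene Ifi47 at 0.58, Rnf213 at 0.53, the antibody receptor gene Fcgr1 at 0.51, and Slfn5 at 0.51. Ifi47 had 9.77 FPKM in KO and 6.22 FPKM in WT, Rnf213 had 20.4 FPKM in KO and 13.9 FPKM in WT, and Slfn5 had 42.3 FPKM in KO and 29.4 FPKM in WT. These and Trex1 lay outside the set of 10 although their differences were above the 0.12 of Bst2 and the 0.40 of Slfn8. Ifi207 at 0.47, Parp9 at 0.45, Irgm2 at 0.42, Parp10 and Znfx1 at 0.36 and Pml at 0.34 followed. Slfn5 and Irgm2 are relatives of Slfn8 and Irgm1, and Ifi207 is a relative of Ifi203.

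**Figure D5:**
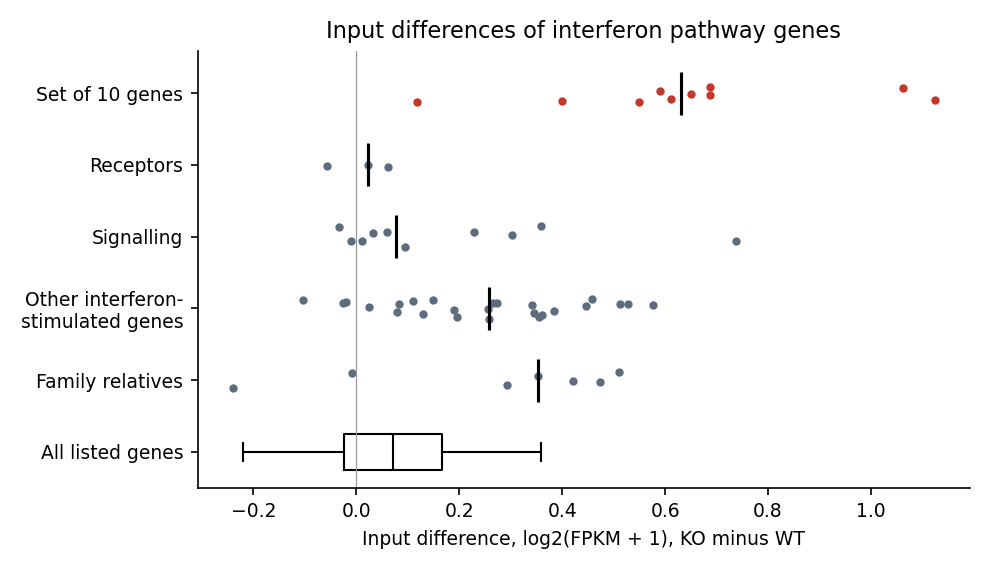
Input difference on the log2(FPKM + 1) scale, KO minus WT, for genes averaging 1 FPKM or more, with 1 point per gene and a vertical line at each median. The bottom row shows all 3679 genes as a box of the quartiles with whiskers to the 5th and 95th percentiles. The 10 genes were chosen for this difference, and the points of the other interferon-stimulated genes lie mostly above the median of all genes.

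Of 62 listed differential peaks in 46 genes of the 4 lists, 17 were higher in KO and 45 lower by the authors' deposited table, near the 69.6% lower among all listed peaks. Their median in the authors' deposited table was -0.35, and 25 lay below the table's median. In the authors' deposited table Jak1 had a ratio of -0.47, Irf3 of -0.49, Irf8 of -0.43, Irf5 of -0.41, Pias1 of -0.64, Ptpn11 of -0.35 and Ifngr1 of -0.39. Ifnar1 had a peak at -0.54 over 1081 bases and another at 0.24 over 481 bases in the authors' deposited table, the higher one with an FDR of 0.0575. For Il10rb the authors' deposited table gave 0.33 at a peak in the gene, and another entry with its name, at 0.22, lay in the extents of both Il10rb and Ifnar2. Adar likewise had 2 longer peaks at -0.22 and -0.35 and a peak of 121 bases at 1.07 in the authors' deposited table, the last with an FDR of 0.0813. Trex1 had 2 overlapping entries at -0.17 in the authors' deposited table, with FDRs of 0.0955 and 0.101. Ptpn6 had a peak at 0.46, and 2 more entries with its name, at 0.99 and 1.04, lay in Grcc10 in the authors' deposited table.

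Among the interferon-stimulated genes the largest ratios in the authors' deposited table were -1.28 and -0.67 for 2 peaks of Daxx, 0.79 for Cmpk2 (FDR 0.055), -0.78 for Ifit1bl1, -0.74 for Trim21, 0.72 for Samhd1, -0.70 for Fcgr1, -0.69 for Helz2 and -0.65 for Irgm2. A peak named Tapbp, also at -0.65 in the authors' deposited table, lay in Zbtb22. Daxx is a histone chaperone of the nucleus, Samhd1 limits viral DNA synthesis by breaking down nucleotides, and Trim21 binds antibodies inside the cell. The Samhd1 peak measured 211 bases and the Daxx peaks 299 and 1220 bases.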

How the data were processed

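IP and input RNA of KO and WT macrophages were each sequenced as 1 library, grouped by sample title. The submitters' processing notes list the build mm10 and the tools edgeR, StringTie, ChIPseeker, HOMER, HISAT2 and fastp, without their roles. The authors deposited, per the file headers, a peak list per genotype with the ratio of IP over input as a fold enrichment, a p-value and an FDR. Their table of differential peaks gives a deposited log2 ratio of KO over WT enrichment, a score computed by the authors before deposit. It also gives a p-value and a log10 FDR, per the file headers. The deposited log10 FDR was converted to an FDR, and the limit of 0.05 was applied to that FDR. Some of the log10 values lie outside a usual log range. Input levels were deposited by the authors in FPKM with a p-value, for genes with a listed differential peak only, and 370 of 6050 peaks have no level. Nothing was pooled.

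Members were matched by the gene name in the files, and each peak was compared with RefSeq gene extents (GRCm38.p6). Starts were converted to count from 1, and lengths and overlaps use exonic blocks, without strand because the listed strand is that of the assigned gene, with a minimum of 1 base. Input differences are log2(FPKM + 1), KO minus WT, for genes averaging 1 FPKM or more. No test was run, as each group is 1 library. The code for overlap, motif search and the log2 difference was checked on simulated data. Promoter motifs were searched in the RefSeq table. The members, the interferon and marker lists and the tests were chosen with earlier results of these data known. The rule for named genes took all 10 members, every ligand, receptor and signalling gene with a level or differential peak, and of the other lists the 10 largest input differences at a mean of at least 5 FPKM and the 10 largest ratios. A result that this rule would name is not reported here. Genes chosen after their values were seen are those under peaks named for another gene and the named copies. Alternatives were a fold of at least 4, a peak p of at most 1e-10, overlap of at least 50% of both peaks, an FDR under 0.05, the table median as zero, a pseudocount of 0.1 and no filter on low levels. Python 3.11.15, numpy 2.4.6, pandas 2.3.3 and matplotlib 3.10.9 were used.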

Additional observations from a re-analysis of the deposited data

How the results depend on the processing

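With peaks of at least 4-fold, 5 of the 10 genes kept a KO peak and 5 a WT peak, against 10 and 8 with all listed peaks. KO peaks then numbered 5 and WT peaks 6, against 17 and 13, KO bases came to 7624 against 14655, and shared peaks to 5 in KO and 5 in WT, against 13 and 12. With a peak p of at most 1e-10, KO peaks numbered 8 over 9570 bases and WT peaks 5 over 9489 bases, against 14655 and 14750 bases, and 5 genes had a WT peak. Fewer peaks pass these limits by construction. Against the table median, 5 differential peaks were lower and 8 higher, against 9 and 4 around 0, and at an FDR under 0.05 higher peaks numbered 2. The other 23 of 38 alternatives moved their value by less than 1.5 times. Restricting peaks to the RefSeq extent of the named gene was in part chosen after seeing the data, and left 8 lower and 3 higher differential peaks. All 10 genes stayed higher in KO input with a pseudocount of 0.1 and after subtracting the median of all genes, and of the 55 genes of the lists with the 10 included, 47 were higher, or 41 after that subtraction. No paired analysis was possible because each genotype has 1 IP and 1 input library, so the groups share fewer than 2 replicate numbers. Genes without a differential peak, differences between animals and the depth of the libraries were not analysed here.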
